A study of Mus musculus with 6 samples.

Results

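The 2′-5′ oligoadenylate synthetase (OAS) family was followed in the P4 sciatic nerve through 8 genes, chosen by name: *Oas1a*, *Oas1b*, *Oas1c*, *Oas1g*, *Oas2*, *Oas3*, *Oasl1* and *Oasl2*. All 8 were found among the 59485 genes of the deposited table and all passed the filter on low values. RNA-seq libraries were made from sciatic nerves of 3 control-labelled and 3 mutant-labelled mice, 1 library per animal, all at postnatal day 4. The mutants are Ht-PA-Cre; Adar1 fl/fl; R26R, in which the human tissue plasminogen promoter drives Cre in neural crest cells, the floxed gene of the RNA editing enzyme ADAR1 is the target, and R26R is a YFP tracer of recombined cells. The controls are labelled wild-type, and per the methods this name covers Adar1 fl/fl; R26R and Adar1 fl/+; R26R littermates without Cre, so floxed alleles and the tracer can be shared by both groups. Nerve cells that do not derive from the neural crest keep their *Adar* alleles, and each value is a sum over all cells of the nerve, so more cells of a type and more RNA per cell cannot be told apart.

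OAS enzymes are interferon-induced sensors of double-stranded RNA. On binding it, the active members join ATP into 2′-5′ linked oligoadenylates, which act as second messengers in the antiviral response. The genes are switched on by interferon through the transcription factor complex ISGF3, which includes STAT2 and IRF9 and binds interferon-stimulated response elements (ISREs) in promoters. ADAR1 edits adenosines in double-stranded RNA to inosines and so makes self RNA less visible to sensors of this kind.

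The promoters are shown first because several members carry the same ISRE letters close to their start. RefSeq promoter windows (GRCm38.p6, the mm10 assembly, from 250 bases before to 50 bases after the start) were at hand for 6 of the 8 members, the exceptions being *Oas1b* and *Oas2*. The ISRE was searched as GAAANNGAAA on both strands and was found in 4 of these 6 windows, against 3.44% of 32851 promoters. The sequences below are written 5′ to 3′ on the strand of the gene up to its start, and capitals mark the ISRE letters.

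*Oas1a*, chr5:120907526-120907655, minus strand: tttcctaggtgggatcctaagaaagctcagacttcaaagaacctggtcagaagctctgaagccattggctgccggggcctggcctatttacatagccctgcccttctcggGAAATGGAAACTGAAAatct
*Oas1g*, chr5:120887614-120887743, minus strand: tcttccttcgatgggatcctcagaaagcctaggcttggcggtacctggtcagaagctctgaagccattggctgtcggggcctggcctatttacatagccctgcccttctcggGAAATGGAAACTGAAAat
*Oas1b*, chr5:120812515-120812634, plus strand: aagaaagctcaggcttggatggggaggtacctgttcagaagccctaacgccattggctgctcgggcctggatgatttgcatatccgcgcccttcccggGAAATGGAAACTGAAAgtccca
*Oas3*, chr5:120777660-120777789, minus strand: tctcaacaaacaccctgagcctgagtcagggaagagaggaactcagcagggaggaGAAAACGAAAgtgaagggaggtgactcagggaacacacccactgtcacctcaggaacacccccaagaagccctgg

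*Oas1a*, *Oas1g*, *Oas1b* and *Oas1c* held the same 16-base run of 2 overlapping matches, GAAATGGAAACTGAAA. It lay 20 to 5 bases before the start of *Oas1a*, 18 to 3 bases before that of *Oas1g* and 22 to 7 bases before that of *Oas1b*. *Oas1b* and *Oas1c* stand head to head with 119 bases between their 5′ ends, so that a single copy of the run lies before both, and for *Oas1c* it reads on the opposite strand at −114 to −99. The *Oas1b* line above was read from the *Oas1c* window. *Oas3* had 1 match of other letters, GAAAACGAAA, at −75 to −66. The windows of *Oasl1* and *Oasl2* held no match to these letters, nor did those of the paralogs *Oas1f* and *Oas1h*. A run of the form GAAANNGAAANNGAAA was present in 0.116% of all promoters, and the exact 16 bases were in the windows of 5 genes. Besides *Oas1a*, *Oas1g* and *Oas1c* these were *Apol9a* and *Apol9b*, of the apolipoprotein L family, which are named after their values were seen. *Apol9a* had 0 reads in the 3 control-labelled libraries and values of 1553, 1205 and 1404 in the mutant-labelled ones, which is at least 418-fold higher. *Apol9b* had 0, 61.4 and 2.53 against 20816, 17124 and 17602. The gamma-activated sequence (GAS), searched as TTCNNNGAA, matched *Oas1a* only among the 6 members, at −98 to −90, and 8.3% of all promoters. A match is a description of letters and says nothing of binding in these nerves.

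Values below are normalised reads, that is, the reads counted by the authors on a gene divided by a size factor per library. The libraries had 50938349 to 78250094 reads on genes, and 1 read was worth 0.727 to 1.27 normalised reads. A gene rose or fell here when limma, run on log2(value + 1), gave it a 2-fold or larger change together with a p of 0.05 or less before adjustment, which are the limits of the methods. Adjustment by the Benjamini-Hochberg method ran over the 25802 genes tested, and the added 1 makes changes of genes with low values look smaller. With 3 animals against 3, an exact permutation test cannot give a p below 0.1. The targeted gene goes against its label. *Adar* had 1602, 2066 and 1133 normalised reads in control-labelled replicates 1 to 3 and 11768, 9311 and 9773 in mutant-labelled replicates 1 to 3, a log2 fold change of 2.72 (SE 0.20; limma, adjusted p = 4.1e-05). With a single value for the whole gene, a deleted segment cannot be separated from the rest, and every direction given below is that of the labels.

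All 8 OAS members rose in the mutant-labelled nerves. Their log2 fold changes ran from 4.52 (*Oas1c*) to 8.28 (*Oas3*) with a median of 6.41, whereas the median of all tested genes was 0.03. For comparison, 13.9% of all tested genes rose and 10.4% fell, and 11.5% rose with an adjusted p at or under 0.05, a limit that all 8 members met too. The lowest mutant-labelled library lay above the highest control-labelled library for 8 of 8 members, as it did for 25.9% of all tested genes, and 49.2% had groups that did not overlap in either direction. Among the 3580 genes that rose, the members ranked from 13 (*Oas3*) to 431 (*Oas1c*) by fold change.

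**Figure D1:**
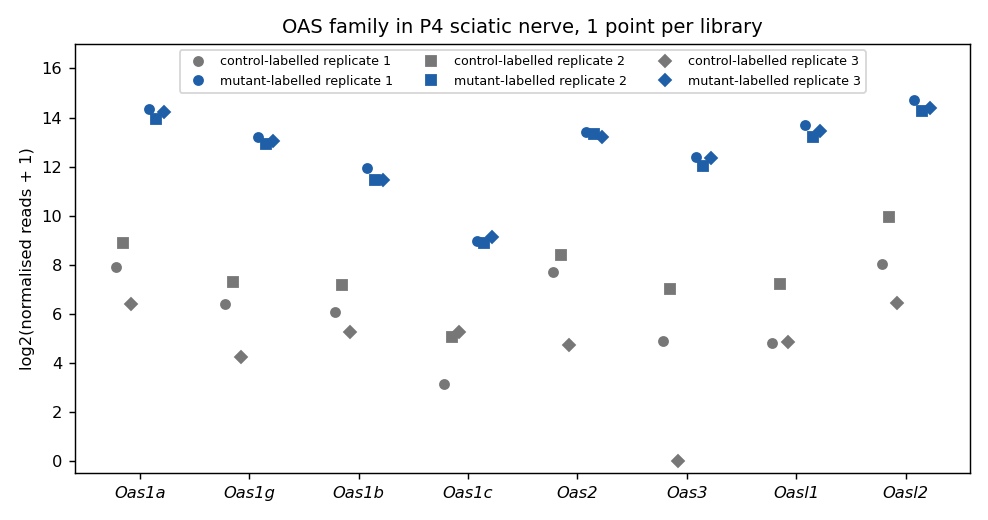
log2(normalised reads + 1) of the 8 OAS members, 1 point per library, with control-labelled libraries in grey and mutant-labelled libraries in blue and the marker shape giving the replicate number. For each member the 3 mutant-labelled points lie close together and above all control-labelled points, among which replicate 2 is the highest for 7 of 8 members, and *Oas3* is at 0 in control replicate 3.

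*Oas1a* and *Oas1g* encode active single-unit synthetases, each of 367 codons in the GENCODE annotation. *Oas1a* (GSMG0031029, mm10 chromosome 5, 120896256 to 120907525, minus strand) had 237, 464 and 82.4 normalised reads in control-labelled replicates 1 to 3 and 20595, 15565 and 19121 in mutant-labelled replicates 1 to 3. The control-labelled values differed by 5.63-fold between the highest and the lowest library, the mutant-labelled values by 1.32-fold, and the groups were far from overlapping. The means were 261 ± 192 and 18427 ± 2586 (SD, n = 3 each), a ratio of 70.6 and a log2 fold change of 6.45 (SE 0.51; limma, adjusted p = 5.23e-05), or 5.78 without control replicate 3.

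*Oas1g* (GSMG0031028, chromosome 5, 120876142 to 120887613, minus strand) had 83.3, 156 and 17.7 normalised reads in the control-labelled libraries and 9505, 7717 and 8335 in the mutant-labelled ones. Control replicate 2 was again the highest of its group and replicate 3 the lowest, and no library overlapped with the other group. The means were 85.6 ± 69.1 and 8519 ± 908 (SD, n = 3 each), and the log2 fold change was 7.08 (SE 0.64; limma, adjusted p = 0.000102). Leaving out control replicate 3 gave 6.21, and leaving out control replicate 2 gave 7.74. *Oas1a* and *Oas1g* shared 610 windows of 130 bases, the read length, which is 34.7% of the windows of the *Oas1a* transcript and 33.0% of those of *Oas1g*. The counting can split or move reads between this pair, so their separate values are uncertain, while no such window was shared by any other OAS gene.

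*Oas1b* and *Oas1c* are the head-to-head pair. *Oas1b*, the flavivirus resistance gene, is truncated by a premature stop in most laboratory strains, and the annotation gives it 251 codons. *Oas1b* (GSMG0029738, chromosome 5, 120812635 to 120824163, plus strand) had 65.5, 143 and 36.7 normalised reads in the control-labelled libraries and 3908, 2800 and 2794 in the mutant-labelled ones, with means of 81.6 ± 54.8 and 3167 ± 641 (SD, n = 3 each). Its log2 fold change was 5.46 (SE 0.43; limma, adjusted p = 4.76e-05).

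*Oas1c* encodes a protein that binds RNA without synthetase activity. *Oas1c* (GSMG0031027, chromosome 5, 120800093 to 120812515, minus strand) had 7.77, 32.1 and 36.7 normalised reads in the control-labelled libraries and 504, 469 and 561 in the mutant-labelled ones. It was the member with the smallest rise, at a log2 fold change of 4.52 (SE 0.54; limma, adjusted p = 0.000399), and the one member whose highest libraries were control replicate 3 and mutant replicate 3; without control replicate 1, its lowest, the value was 3.85. Its 95% interval, 3.30 to 5.75, overlapped that of *Oas1b*, 4.48 to 6.43, and the difference between the pair was not tested.

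*Oas2* and *Oas3* encode the larger enzymes, built of repeated OAS units, with 751 and 1138 codons. *Oas2* (GSMG0031024, chromosome 5, 120730333 to 120749853, minus strand) had 207, 336 and 25.3 normalised reads in the control-labelled libraries and 10754, 10137 and 9412 in the mutant-labelled ones. It combined a 13.3-fold span among control-labelled libraries, the widest of the members with reads in every library, with the narrowest span among mutant-labelled libraries, 1.14-fold. The means were 189 ± 156 and 10101 ± 672 (SD, n = 3 each), and the log2 fold change was 6.36 (SE 0.79; limma, adjusted p = 0.000491). It was 5.25 without control replicate 3, 7.09 without control replicate 2 and 5.72 by edgeR.

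*Oas3* (GSMG0031025, chromosome 5, 120753098 to 120777659, minus strand) had 28.9, 129 and 0 normalised reads in the control-labelled libraries and 5310, 4168 and 5237 in the mutant-labelled ones. The groups did not overlap, but the control-labelled libraries reached from no read to over 100 normalised reads, and a count of 0 allows up to 3 reads. The log2 fold change of 8.28 was the largest of the members and had the widest error (SE 1.45, 95% interval 4.97 to 11.59; limma, adjusted p = 0.00288). It was 6.29 without control replicate 3, 9.80 without control replicate 2, 7.02 with a pseudocount of 10 and 6.48 by edgeR, so the place of *Oas3* at the head of the list depended on that library and on the scale of the fit. The ratio of the group means was 93.5.

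The OAS-like proteins carry ubiquitin-like domains behind the OAS unit. *Oasl1*, which has no synthetase activity and is known to hold back translation of *Irf7* mRNA, lies on chromosome 5 from 114923239 to 114937915 on the plus strand (GSMG0029665). It had 26.7, 147 and 27.9 normalised reads in the control-labelled libraries and 13389, 9326 and 11264 in the mutant-labelled ones. Control replicates 1 and 3 were close to each other, replicate 2 stood above both, and all lay far below the mutant-labelled libraries. The ratio of means, 168, was the highest among the members, and the log2 fold change was 7.83 (SE 0.57; limma, adjusted p = 3.6e-05), or 8.63 without control replicate 2.

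*Oasl2*, an active synthetase, lies next to it from 114896934 to 114912245 (GSMG0029663, plus strand). It had 257, 980 and 84.9 normalised reads in the control-labelled libraries and 27057, 19945 and 21501 in the mutant-labelled ones. Its control-labelled libraries spanned 11.5-fold, and even the highest of them was 23.3-fold below the mutant-labelled mean. The log2 fold change was 6.34 (SE 0.71; limma, adjusted p = 0.000303), with 5.49 when control replicate 3 was left out, 7.25 when control replicate 2 was, and 5.70 by edgeR.

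The 8 members together had 14.8, 36.8 and 4.83 RPM, relative to all reads on genes, in control-labelled replicates 1 to 3 and 1599, 1230 and 1386 in mutant-labelled replicates 1 to 3. In reads, the family counted 821, 2526 and 246 against 125134, 72682 and 79089. The control-labelled libraries were thus unequal in OAS level, with replicate 2 highest for 7 of 8 members and replicate 3 lowest for 6, while the mutant-labelled libraries stayed within 1.14- to 1.44-fold of each other for each member. The SD of log2(value + 1) was larger in the control-labelled than in the mutant-labelled group for 8 of 8 members, with medians of 1.48 and 0.20. The same held for 11984 of the 25802 tested genes, and over all of these the medians were 0.28 and 0.31. They were not matched to the members for level. The mutant-labelled mean lay 15.9-fold (*Oas1c*) to 76.8-fold (*Oasl1*) above control replicate 2. Of all tested genes, 30.5% had their highest control-labelled value in replicate 2. *Xist* had reads in control replicates 1 and 3 and mutant replicate 2, and none in the other three libraries. In a split made after the data were seen, mutant replicate 2 lay 21.1-fold (*Oas1c*) to 342-fold (*Oasl1*) above the mean of the 2 control-labelled libraries with *Xist* reads. The mean of the 2 mutant-labelled libraries without *Xist* reads lay 16.6-fold (*Oas1c*) to 83.6-fold (*Oasl1*) above control replicate 2, and neither comparison has a test, since each has 1 library on one side. Control replicate 2 is the only control-labelled library without *Xist* reads, so that trait and its high OAS level cannot be told apart.

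The other OAS1 paralogs were low. *Oas1d*, known from oocytes and without synthetase activity, had 0 reads in the control-labelled libraries and 122, 44.4 and 89.0 normalised reads in the mutant-labelled ones, at least 25.6-fold higher against a floor of 3 reads per library. *Oas1e* had 0 reads in the control-labelled libraries and 20.4, 11.6 and 11.9 normalised reads in the others, at least 4.40-fold higher. With 0 reads in the control-labelled libraries, both could pass the filter only through the mutant-labelled group, so the filter fixed their direction. Their adjusted p-values (limma, 0.000341 and 0.00900) are given as a description only. Both lie in the same cluster as the members other than *Oasl1* and *Oasl2*. *Oas1h* was at 0 in the control-labelled libraries and at 5.82, 0 and 7.91 in the mutant-labelled ones, below the filter, and *Oas1f* had no reads in any library.

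Genes further along the pathway, most of them acting on the product of the OAS enzymes, had smaller fold changes. Of 4 genes listed, 1 rose, 1 fell and 2 did not pass, a count from which nothing is read, as 13.9% of all tested genes rose and 10.4% fell.

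*Pde12*, the phosphodiesterase that degrades 2′-5′ oligoadenylates, had 1530, 1688 and 1616 normalised reads in the control-labelled libraries and 3345, 3213 and 3386 in the mutant-labelled ones. The groups were narrow and apart, and the rise was just past 2-fold, at a log2 fold change of 1.04 (SE 0.10; limma, adjusted p = 0.000105). *Abce1*, an ATPase that recycles ribosomes and is also known as an inhibitor of this pathway, had 13072, 12513 and 12554 against 17112, 17357 and 18725. Its groups did not overlap either, but its log2 fold change of 0.48 (SE 0.08; limma, adjusted p = 0.00236) was below 2-fold.

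*Enpp1* and *Akap7* encode proteins that can also cleave 2′-5′ bonds. *Enpp1* fell, from 1163, 1146 and 931 to 452, 549 and 498 normalised reads, a log2 fold change of −1.11 (SE 0.15; limma, adjusted p = 0.000805). This call depended on the scaling, since with the same total in each library the change was −0.94. *Akap7* had a log2 fold change of 0.27 (limma, adjusted p = 0.209), with overlapping groups.

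**Figure D2:**
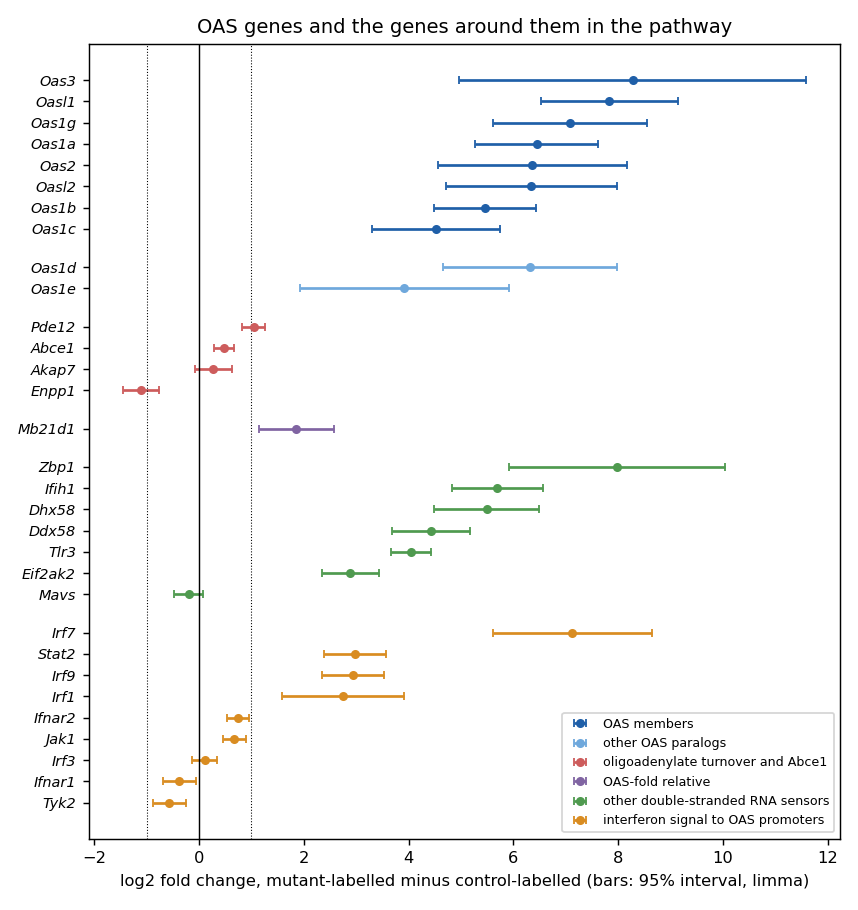
log2 fold change (mutant-labelled minus control-labelled) with its 95% interval from limma for the OAS members, the 2 other OAS paralogs that could be tested, and the listed genes of the pathway. Dotted lines mark a 2-fold change. The 8 members lie between 4.52 and 8.28, and *Pde12*, *Abce1*, *Akap7* and *Enpp1* lie between −1.11 and 1.04.

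Other sensors of double-stranded RNA rose too. Of 7 genes listed, the adaptor gene *Mavs* among them, 6 rose and none fell, where 13.9% of all tested genes rose and 10.4% fell, and the median log2 fold change was 4.42. *Zbp1*, a sensor of Z-form nucleic acid, went from 71.1, 742 and 38.0 normalised reads to 34310, 27931 and 34764, a log2 fold change of 7.98 (9.25 without control replicate 2, 7.12 without control replicate 3 and 6.83 by edgeR). *Ifih1*, which encodes MDA5, went from 503, 914 and 260 to 28416, 21948 and 26734. In both genes control replicate 2 was the highest of its group, as it was for 6 of the 7. *Dhx58* (LGP2), *Ddx58* (RIG-I), *Tlr3* and *Eif2ak2* (the kinase PKR) had log2 fold changes of 5.49, 4.42, 4.04 and 2.89. *Mavs*, the adaptor of MDA5 and RIG-I, had 1285, 1105 and 1213 normalised reads against 1126, 985 and 1028 and did not pass (log2 fold change −0.20). *Mb21d1*, which encodes cGAS, a DNA sensor with the same enzyme fold as OAS, had 143, 123 and 67.2 against 348, 460 and 358. It rose by less, at a log2 fold change of 1.86 (SE 0.31; limma, adjusted p = 0.00245), and its highest control-labelled library was replicate 1.

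Along the path from the interferon receptor to the ISRE, 4 of 9 genes rose and none fell, where 13.9% of all tested genes rose and 10.4% fell. These were *Stat2* (log2 fold change 2.98) and *Irf9* (2.94), which encode subunits of ISGF3, and the interferon regulatory factors *Irf7* (7.12) and *Irf1* (2.75). Without control replicate 2 the values of *Irf7* and *Irf1* were 7.99 and 3.46, and without control replicate 3 that of *Irf7* was 6.37. *Stat2* had 2110, 3390 and 1646 normalised reads in the control-labelled libraries and 22841, 15374 and 16343 in the mutant-labelled ones. *Irf7* had 492, 1947 and 204 against 99343, 70931 and 75697. Control replicate 2 was thus high for these as for the OAS genes. The receptor subunits *Ifnar1* and *Ifnar2*, the kinases *Jak1* and *Tyk2*, and *Irf3* stayed below 2-fold, with log2 fold changes from −0.57 (*Tyk2*) to 0.75 (*Ifnar2*). Of these, *Ifnar2* and *Jak1* were higher and *Tyk2* and *Ifnar1* lower in all 3 mutant-labelled libraries than in any control-labelled one (limma, adjusted p = 0.000505, 0.00107, 0.0144 and 0.0655, in that order).

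The genes beside the OAS clusters were compared by position. Within 250000 bases of a member lie 30 genes with a symbol outside the OAS family, of which 26 were tested. Of these 26, 2 rose and 2 fell, where 24.2% of all tested genes passed in either direction, and their median log2 fold change was −0.17. The nearest of these that were tested stayed below 2-fold. *Dtx1*, 18662 bases from *Oas2*, had 385, 359 and 310 normalised reads in the control-labelled libraries and 340, 478 and 268 in the mutant-labelled ones (log2 fold change 0.01). *Rph3a*, 32977 bases from *Oas1a*, had a log2 fold change of −0.19. *2210016L21Rik*, 4269 bases from *Oasl1*, was at −0.32, lower in all 3 mutant-labelled libraries (limma, adjusted p = 0.0337), and on the side of *Oasl2* the nearest such gene, *2610524H06Rik* at 73466 bases, was at −0.18.

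The pair that rose was *Rasal1*, with 4.44, 7.56 and 0 normalised reads against 69.1, 56.9 and 36.6 (log2 fold change 3.89; limma, adjusted p = 0.0102), and *Cabp1* (1.07; limma, adjusted p = 0.00149). *Rasal1* was at 4.52 without control replicate 2 and 2.97 without control replicate 3, and *Cabp1* missed 2-fold without control replicate 2, at 0.98. *Gltp* and *Mlec*, near *Oasl2* and *Oasl1*, respectively, fell, with log2 fold changes of −1.23 and −1.58. Of 13 tested genes without a symbol in the same windows, 4 rose and none fell, where 13.9% of all tested genes rose and 10.4% fell. Of these 4, 2 lie outside the members on the side of *Oasl2*, nearer to it than any tested gene with a symbol, and are named after their values were seen. GSMG0030963, at 37550 bases, had 11.1, 39.7 and 25.3 normalised reads against 129, 98.4 and 176 (log2 fold change 2.49; limma, adjusted p = 0.0069). GSMG0030962, at 54858 bases, had 0 reads in the control-labelled libraries against 13.8, 16.4 and 14.8 normalised reads, at least 4.52-fold higher. It could pass the filter only through the mutant-labelled group. The other two lie within members on the same strand. The first, GSMG0029664, lies within *Oasl2* (114901834 to 114903941), has 4.79% of its bases in *Oasl2* exons, and had 80.0, 205 and 31.7 normalised reads against 8265, 5243 and 4868. The second, GSMG0068285, lies within *Oas2* (120746035 to 120747309) outside its exons, and had 0 reads in the control-labelled libraries against 16.0, 44.4 and 9.89 normalised reads. Both passed the test, but GSMG0068285 could pass the filter only through the mutant-labelled group. Reads of such a gene and of its host cannot be fully told apart.

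**Figure D3:**
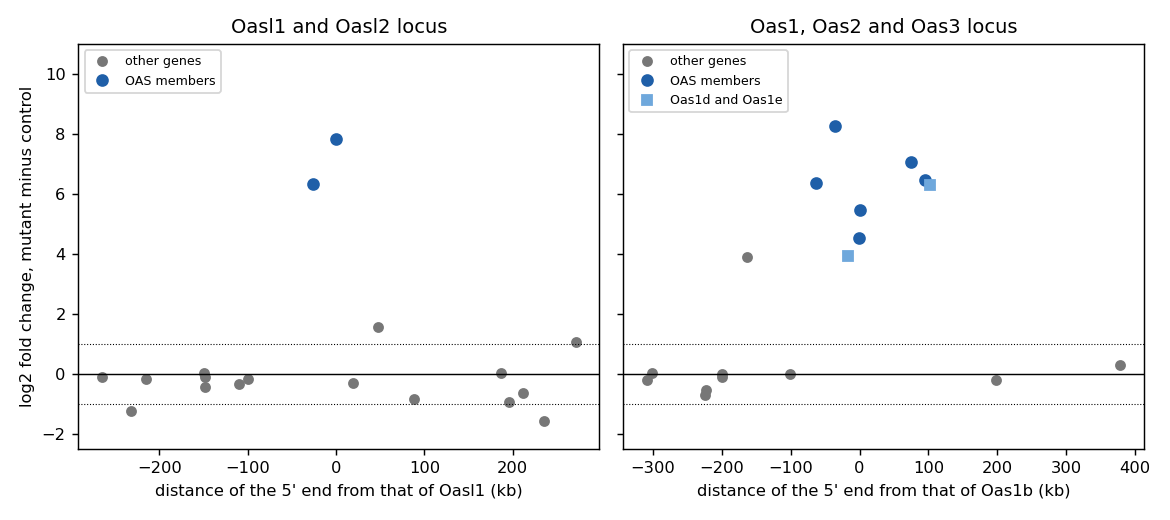
log2 fold change (mutant-labelled minus control-labelled) of tested genes with a symbol, by the distance in kb of their 5′ end from that of *Oasl1* (left) or *Oas1b* (right), with dotted lines at a 2-fold change. The 8 members (dark blue) lie at or above 4.52, *Oas1d* and *Oas1e* (light squares) at 6.31 and 3.92, and the 26 other genes (grey) have a median of −0.17, with *Rasal1* the highest at 3.89.

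The 5 genes whose profile over the 6 libraries was most like the mean profile of the members were *Lgals3bp*, *Isg15*, *Phf11b*, *Ddx60* and *Xaf1*. Pearson's r was 0.9996 for *Lgals3bp* and 0.999 for *Xaf1*, over 6 libraries that fall into the 2 groups, and is given as a description with no test. *Isg15*, the ubiquitin-like modifier, had 722, 2635 and 375 normalised reads against 81557, 65130 and 80303. *Lgals3bp*, a secreted galectin-binding protein, had 3845, 7096 and 2043 against 86093, 68598 and 71256. In both, control replicate 2 was the highest of its group and replicate 3 the lowest, and they were chosen for their likeness to the OAS profile. The members' own r with their mean ran from 0.930 (*Oas1c*) to 0.999 (*Oas1a*), and that of pairs of members from 0.818 to 0.999.

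Cell type markers also differed between the groups, and their part in the OAS values was not tested. The counts below stand beside 13.9% of all tested genes that rose and 10.4% that fell. Of 8 Schwann cell markers, 4 fell and none rose, and their summed level was 1137600 to 1505410 normalised reads in the control-labelled and 58038 to 214076 in the mutant-labelled libraries. Of 10 macrophage markers, 1 rose (*Aif1*) and 4 fell (*Csf1r*, *Mrc1*, *Cd163* and *Cx3cr1*), with sums of 18359 to 23185 against 15761 to 18971. *C1qa* and *Itgam* had higher values in all 3 mutant-labelled libraries than in any control-labelled one without reaching 2-fold (log2 fold changes 0.56 and 0.56). Of 7 T and NK cell markers tested, 5 rose, with sums of 112 to 230 against 373 to 558. Within this list *Cd8a*, *Ncr1* and *Cd3d* were at 0 in the control-labelled libraries, so they could pass the filter only through the mutant-labelled group. *Cd8a* had 20.4, 19.3 and 5.93 normalised reads in mutant-labelled replicates 1 to 3, and *Ncr1* had 50.9, 75.3 and 37.6. *Cd3d*, below the filter, had 5.82, 3.86 and 9.89. *Cd3e* and *Cd3g* did not pass (log2 fold changes 0.40 and 1.31) and had overlapping groups. *Cd4* rose with overlapping groups too (limma, adjusted p = 0.0542). None of 7 endothelial markers, 4 B cell markers, 4 neutrophil markers or 5 adipocyte markers passed both limits. The 7 endothelial markers had log2 fold changes of 0.16 to 0.81, and *Kdr* (0.81) and *Emcn* (0.57) had groups that did not overlap (limma, adjusted p = 0.0331 and 0.0339). Of 6 skeletal muscle markers 5 rose (5197 to 28361 against 34537 to 268128), and of 6 erythroid markers 5 fell (54934 to 76999 against 5133 to 15724). Of 5 fibroblast markers 2 fell, as did 1 of 4 perineurial markers.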

How the data were processed

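The authors sequenced oriented poly-A+ cDNA, mapped the reads to mm10 with STAR 2.4.0 (version per the submitters' processing notes), counted those on constitutive regions of FAST DB genes and scaled each library by its DESeq2 size factor. The deposited signal values are these normalised reads per gene and library. Dividing by what 1 read is worth gave whole reads (within 0.01 read) in 100% of cases, which edgeR and DESeq2 took as input. Libraries had 50938349 to 78250094 reads on genes. The floor of 3 reads covers the error of counting alone, as copies made by PCR were not told apart.

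log2(value + 1) was fitted with limma (lmFit, eBayes with trend) as mutant-labelled minus control-labelled for the genes with a mean of at least 10 in at least 1 group, with Benjamini-Hochberg adjustment across them. Groups and replicate numbers come from the labels, which call the samples independent. The genes named are the members, the listed pathway and marker genes, called and nearest neighbours, unnamed genes within members, and the 5 most similar profiles. Some listed genes are not reported here. The members and lists were chosen with earlier results of these data known. Same-numbered libraries did not deviate together (r of −0.26, −0.02 and −0.04), so they were not paired. The level of 1 gene was not compared with that of another, since the counted lengths are not given in the sources used here. The fit was tested on simulated data.

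Alternatives were pseudocounts, filters, scalings, eBayes without trend, an adjusted p, edgeR, DESeq2, a replicate block and each library left out, and a term for *Xist* reads was added after the data were seen. Transcripts are from GENCODE M21 and promoters from RefSeq. R 4.3.3, limma 3.58.1, edgeR 4.0.16, DESeq2 1.42.0, Python 3.11.15, pandas 2.3.3 and matplotlib 3.10.9 were used.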

Additional observations from a re-analysis of the deposited data

How the results depend on the processing

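All 8 OAS members passed the threshold under each of 13 further settings and in the 6 fits that left out 1 library each. The median log2 fold change of the members ran from 5.93 (edgeR) to 6.57 (same total in each library), and from 5.64 (without control replicate 3) to 7.17 (without control replicate 2). Their adjusted p-values were highest by eBayes without trend, where that of *Oas3* was 0.0266. With the replicate number as a block the median was 6.41 and 6149 genes passed in all, against 6251, and the block changed no call of a member. Of the other pathway genes 14 to 15 passed in either direction, and of the neighbours 4 to 5. In the main fit the pathway genes tested were 2 paralogs, 4 genes further along, 7 sensors, 9 interferon path genes and *Mb21d1*. The neighbours tested were 26, and 24.2% of all tested genes passed. The main pathway count holds the fall of *Enpp1* and the paralogs with 0 control reads. The count over all genes ran from 4706 (mean of at least 50) to 6892 (no filter). The same total in each library moved the median of all genes to 0.20 and ended the call of *Enpp1* (−0.94). With a term for *Xist* reads the members' median was 6.05. Values rest on 3 animals per group, and *Oas3*, *Oas1c* and the paralogs rest on few reads in the control-labelled libraries.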
